A study of Rattus norvegicus with 16 samples.

Results

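Monocyte chemokines, fractalkine and their receptors were followed in the dorsal root ganglia (DRGs) of rats with bone cancer. The 8 genes were chosen by symbol and comprised the CC chemokine ligands Ccl2, Ccl6, Ccl7 and Ccl11, the CC receptors Ccr1 and Ccr2, and the fractalkine gene Cx3cl1 with its receptor Cx3cr1. Of these, 7 had a row among the 21021 genes of the expression tables, and Ccr2 was not analysed here. Adult female Sprague-Dawley rats received Walker 256 mammary gland carcinoma cells in the left tibia (tumor cell injection, TCI), and DRGs were taken 1, 7 or 14 days later. Sham rats received PBS by the sample labels and boiled tumor cells by the study's methods, and their DRGs were taken on day 14 only. A comparison of day 1 or day 7 with sham therefore also differs in the time since surgery, and the effect of tumor cells and that of time cannot be told apart there. The L3 to L5 ganglia of the injected side of 1 rat formed 1 sample, with 4 samples in each of the 4 groups. The carcinoma cells were placed in the bone, so the ganglia were sampled at a distance from the tumor.

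Chemokines are small secreted proteins that draw leukocytes along a gradient through G protein-coupled receptors. Ccl2 and Ccl7 are ligands of Ccr2, the receptor that brings classical monocytes out of the blood, Ccl6 acts mainly through Ccr1, and Ccl11 (eotaxin) draws eosinophils through Ccr3. Fractalkine, the product of Cx3cl1, is made as a membrane-bound protein that proteases shed from the cell surface. Its receptor Cx3cr1 is carried by macrophages, microglia and non-classical monocytes. In sensory ganglia these signals are known for neuron-to-macrophage communication in pain states.

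The ligand genes lie in 2 groups of neighbouring CC chemokine genes on rat chromosome 10. In the RefSeq gene order Ccl2, Ccl7, Ccl11 and Ccl12 follow each other, and Ccl6 lies between Ccl9 and Ccl3 in a group that also holds Ccl5 and Ccl4. Ccr1, Ccr3 and Ccr2 follow each other on chromosome 8 with Ccr1l1 between the latter pair, Cx3cr1 lies beside Ccr8 on that chromosome, and Cx3cl1 lies between Ccl17 and Ccl22 on chromosome 19. Promoter sequences of 300 bases, from 250 bases before the transcription start to 50 bases from the start on, were found for 5 of the 7 measured genes in the RefSeq table of assembly GRCr8, and Ccl2 and Ccl11 had none there. The windows are chr10:68883317-68883616 on the minus strand for Ccl6, chr10:67513845-67514144 on the plus strand for Ccl7, chr19:10242771-10243070 on the minus strand for Cx3cl1 and chr8:128677017-128677316 on the minus strand for Cx3cr1. They are shown because the level of each of these 4 genes passed the test in at least 1 comparison below, with 5′ to 3′ in the direction of transcription and the matched motifs in capitals.
Ccl6: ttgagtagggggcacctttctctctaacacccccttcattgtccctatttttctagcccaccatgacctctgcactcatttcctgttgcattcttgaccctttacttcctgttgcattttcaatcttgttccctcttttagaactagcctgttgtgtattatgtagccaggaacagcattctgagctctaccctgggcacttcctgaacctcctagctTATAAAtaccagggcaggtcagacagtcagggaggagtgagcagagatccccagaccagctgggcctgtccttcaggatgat
Ccl7: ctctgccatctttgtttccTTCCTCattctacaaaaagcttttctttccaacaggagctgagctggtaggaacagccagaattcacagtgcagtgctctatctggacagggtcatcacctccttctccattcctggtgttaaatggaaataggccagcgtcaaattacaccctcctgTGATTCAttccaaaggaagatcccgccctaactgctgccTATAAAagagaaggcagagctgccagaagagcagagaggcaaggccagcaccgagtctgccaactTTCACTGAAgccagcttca
Cx3cl1: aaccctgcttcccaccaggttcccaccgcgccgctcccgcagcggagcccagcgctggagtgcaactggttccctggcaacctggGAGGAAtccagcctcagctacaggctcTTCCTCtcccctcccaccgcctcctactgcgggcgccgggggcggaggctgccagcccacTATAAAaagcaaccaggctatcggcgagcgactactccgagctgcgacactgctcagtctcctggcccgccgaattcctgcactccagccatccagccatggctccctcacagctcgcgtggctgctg
Cx3cr1: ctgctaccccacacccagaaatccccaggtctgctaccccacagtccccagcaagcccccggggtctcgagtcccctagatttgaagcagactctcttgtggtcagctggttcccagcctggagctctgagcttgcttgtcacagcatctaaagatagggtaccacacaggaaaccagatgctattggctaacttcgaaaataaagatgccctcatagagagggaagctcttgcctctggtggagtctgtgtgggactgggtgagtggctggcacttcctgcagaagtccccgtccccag

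Both strands were searched for the TATA box (TATAAA), the AP-1 site (TGANTCA), the STAT site GAS (TTCNNNGAA), the interferon element ISRE (GAAANNGAA), the C/EBP site (TTGCNNAA), the PU.1 core (GAGGAA) and the NF-kB consensus. PU.1 is the macrophage lineage factor, and NF-kB, AP-1 and STAT factors are known for inducing chemokine genes. Ccl6 held a TATA box from 32 to 27 bases before the start and no other of these motifs. Ccl7 held a TATA box from 34 to 29 bases before the start, an AP-1 site from 73 to 67 bases before it, a PU.1 core on the minus strand from 231 to 226 bases before it, and a GAS match at bases 32 to 40 of the transcript. Cx3cl1 held PU.1 cores from 165 to 160 bases and, on the minus strand, from 138 to 133 bases before the start, and a TATA box from 78 to 73 bases before it. In the promoter of Ccr1 (not printed) only a PU.1 core was matched, from 245 to 240 bases before the start, and in that of Cx3cr1 none of the motifs was found. Among all 33469 promoters of the same length, 14.2% held a TATA box, 7.33% an AP-1 site, 8.87% a GAS match, 27.6% a PU.1 core, 9.71% an ISRE, 10.6% a C/EBP site and 4.18% the NF-kB consensus. These matches describe letters in a window and do not show that a factor was bound. The Cx3cl1 window was the richest of the 5 in G and C at 66.3%, with 20 CpG dinucleotides, against 48.7% and 0 for Ccl6, 49% and 3 for Ccl7, 46.7% and 2 for Ccr1, and 56% and 4 for Cx3cr1. The median over all promoters was 51.7%.

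Expression was given as FPKM, a fragment number divided by transcript length and by the library's mapped total, which allows levels of different genes to be compared per length. The tables hold no read counts, so the depth behind a value is unknown. The study's text leaves out TCI day 1 replicate 2 and TCI day 7 replicate 3 for low correlation, and the results below rest on the other 14 samples (4 sham, 3 day 1, 3 day 7 and 4 day 14), with values from all 16 beside them. Day 7 replicate 3 stood apart here, with a median Pearson r of 0.926 with the other samples across genes, while day 1 replicate 2 (0.983) lay with the other day 1 samples (0.983 to 0.984). Among the samples kept, day 14 replicate 2 had the lowest median r (0.951). The 10 neuron markers summed to between 10596 and 18593 FPKM in all 16 samples, and none of them was at 0 in any sample. Skeletal muscle markers summed to 20251 FPKM in day 7 replicate 3 and to 481 FPKM in sham replicate 4, against at most 16.1 FPKM in the other day 7 samples and 10.7 FPKM in the other sham samples. Groups were compared by limma on log2(FPKM + 1), with p-values adjusted over the 14023 genes tested. The study's cut-offs were used for a call, a log2 fold change of 1 or more with the adjusted p no higher than 0.001. A gene is said to have risen where the adjusted p was no higher than 0.05 at the same fold change, and this is named the looser cut-off. Fold changes on this scale understate the change of genes near 0.

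In sham DRGs Ccl2 was by far the most abundant of the 7 transcripts. Its mean of 13.9 ± 1.67 FPKM (SD, n = 4) was followed by Ccl6 at 4.62 ± 1.82 and Cx3cl1 at 2.96 ± 0.757 FPKM, whose sample ranges overlapped. Ccl7 at 1.5 ± 0.366 and Cx3cr1 at 1.24 ± 0.254 FPKM also overlapped each other and lay below those. Ccl11 (0.2 ± 0.13 FPKM) and Ccr1 (0.198 ± 0.11 FPKM) were close to the lower end of the scale in every sham sample. Both passed the filter on low values (at least 1 FPKM in at least 3 samples) through TCI samples alone, Ccl11 with 6 and Ccr1 with 3 of the 14 samples at 1 FPKM or more and none of these in sham, so they could hardly pass without differing between groups.

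**Figure D1:**
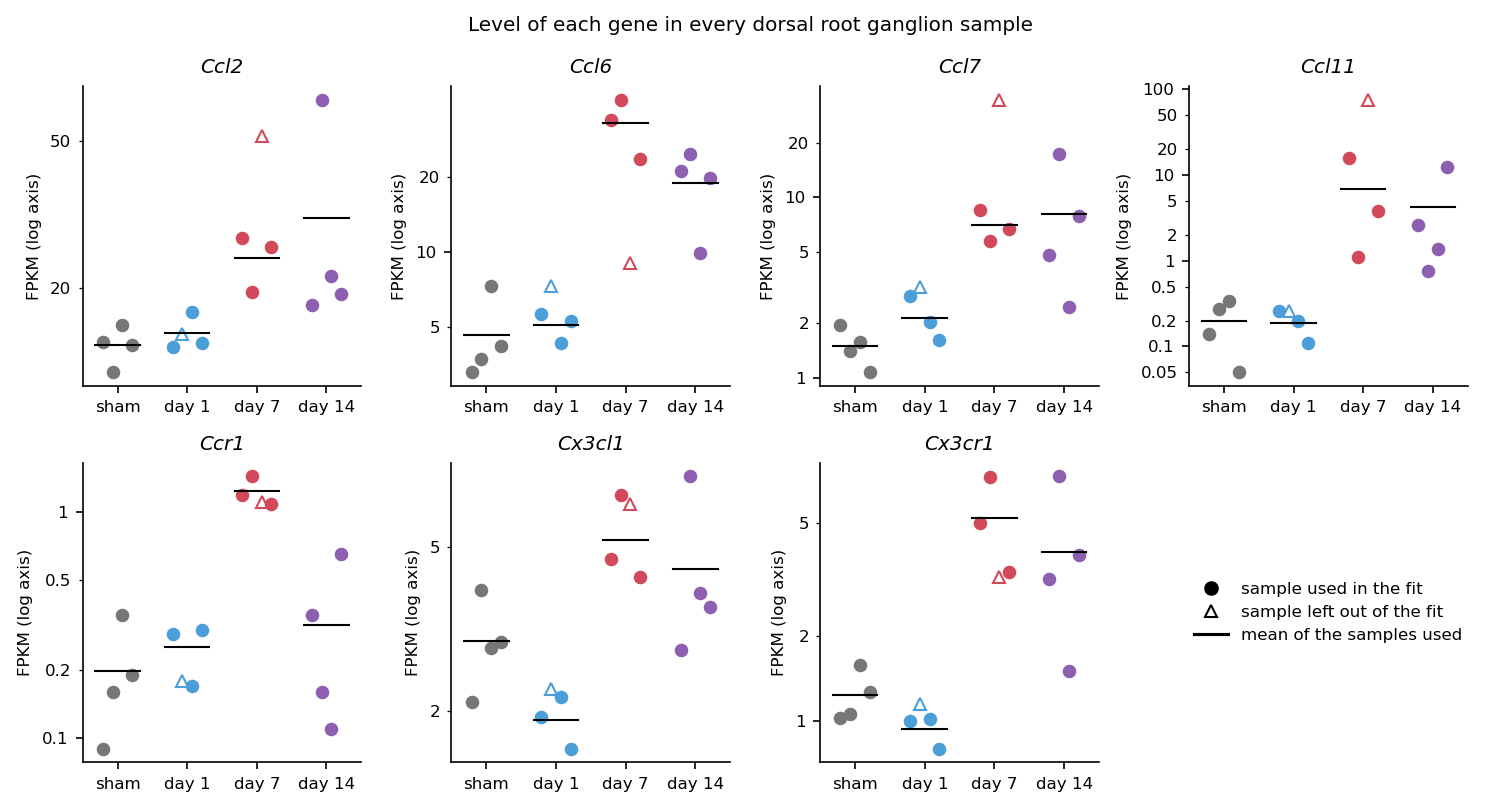
Level of each gene (FPKM, log axis) in every sample of the sham, day 1, day 7 and day 14 groups. Filled circles are the 14 samples of the fit, open triangles the 2 samples left out, and bars the means of the circles. Sham and day 1 samples lie at like levels, and every day 7 sample lies above every sham sample for all 7 genes. With the 14 samples of the fit this order held for 23.8% of all genes tested.

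On day 1 after TCI none of the 7 genes passed the test against sham. Ccl2 measured 13.79, 17.13 and 14.14 FPKM in the samples kept, around the sham range of 11.76 to 15.82 FPKM. Ccl6 measured 5.66, 4.30 and 5.28 FPKM and Ccl7 2.82, 2.03 and 1.61 FPKM. The fractalkine pair had the lowest fold changes. Cx3cl1 measured 1.94, 2.16 and 1.62 FPKM (log2 fold change -0.43, SE 0.235), with 1 of these samples inside the sham range, and its adjusted p of 0.941 was the lowest of the 7. Cx3cr1 measured 1.00, 1.02 and 0.80 FPKM (-0.20, SE 0.308, adjusted p = 0.995), just below the lowest sham sample of 1.03 FPKM, and the day 1 sample left out, at 1.15 FPKM, lay inside the sham range. By limma no member and no other gene was called or rose (0% of genes tested at either cut-off), while 734 genes had an unadjusted p under 0.05, and with all 16 samples the counts were again 0.

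On day 7 3 of the 4 CC ligands rose, against 3.93% of all genes tested, and of these Ccl6 had the lowest adjusted p. Ccl11, 1 of the 3, entered the test through TCI samples. Ccl6, a chemokine made mainly by macrophages and other myeloid cells, measured 3.29, 3.72, 7.29 and 4.19 FPKM in sham and 33.92, 40.83 and 23.55 FPKM on day 7. The groups did not overlap, and the mean rose 7.09-fold, from 4.62 to 32.8 ± 8.7 FPKM (n = 3). Its log2 fold change was 2.60 (SE 0.286, adjusted p = 0.000116) and it was the only one of the 7 genes called, against 1.83% of all genes tested. In bulk samples like these, a change in the number of cells of a type and a change in RNA per cell cannot be told apart. The day 7 sample left out measured 9.07 FPKM, just above the highest sham sample, and with it the log2 fold change was 2.17 (adjusted p = 0.000977). This call rested on day 7 replicate 1 in that its adjusted p was 0.00121 without that sample.

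Ccl7 and Ccl11, neighbours of Ccl2 on chromosome 10, rose at the looser cut-off. Ccl7 measured 1.95, 1.41, 1.58 and 1.07 FPKM in sham and 8.50, 5.74 and 6.69 FPKM on day 7, with no overlap. The means differed 4.64-fold, and the log2 fold change was 1.67 (SE 0.401, adjusted p = 0.0113). Without day 7 replicate 1 the adjusted p of Ccl7 was 0.0517. Ccl11 measured 0.14, 0.27, 0.34 and 0.05 FPKM in sham and 15.71, 1.12 and 3.76 FPKM on day 7. The day 7 samples thus spanned a 14-fold range although each exceeded every sham sample. The log2 fold change of Ccl11 was 2.21 (SE 0.66, adjusted p = 0.0344), and it no longer passed in 8 of 22 alternatives, among them the fits without day 7 replicate 1 (adjusted p = 0.156), without day 7 replicate 4 and without any 1 of the sham samples. In the left-out day 7 sample, which also held the muscle transcripts, Ccl7 reached 34.81 and Ccl11 75.66 FPKM, the highest values of either gene in the series, and with all 16 samples the log2 fold changes were 2.21 (adjusted p = 0.00587) and 3.16 (adjusted p = 0.0153).

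Ccl2, the main ligand of Ccr2, showed a smaller difference that depended on which samples entered the fit. It measured 14.21, 11.76, 15.82 and 13.99 FPKM in sham and 27.22, 19.45 and 25.72 FPKM on day 7, again without overlap. The log2 fold change was 0.74 (SE 0.332, adjusted p = 0.147), under both cut-offs. Leaving out day 14 replicate 2, which measured 64.93 FPKM, gave the same 0.74 with an adjusted p of 0.000904. With all 16 samples, in which day 7 replicate 3 measured 51.83 FPKM, it was 1.01 (adjusted p = 0.0459).

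Of the fractalkine pair and Ccr1, only Cx3cr1 passed the looser cut-off on day 7. Cx3cr1 measured 1.03, 1.06, 1.58 and 1.27 FPKM in sham and 5.01, 7.27 and 3.37 FPKM on day 7, and it rose 4.22-fold in its mean (log2 fold change 1.43, SE 0.308, adjusted p = 0.00632). The left-out sample at 3.24 FPKM lay with the others, and with it the log2 fold change was 1.31 (adjusted p = 0.00449). The ligand Cx3cl1 measured 2.11, 3.95, 2.84 and 2.95 FPKM in sham against 4.69, 6.72 and 4.23 FPKM on day 7. The day 7 samples all exceeded the sham samples, though the nearest pair lay close together, and the log2 fold change of 0.65 (SE 0.235) had an adjusted p of 0.0758, or 0.0272 with all 16 samples. Ccr1, a receptor of Ccl6 and Ccl7, measured 0.09, 0.16, 0.35 and 0.19 FPKM in sham and 1.19, 1.44 and 1.08 FPKM on day 7. These day 7 samples stood close together and far from sham, and the log2 fold change of 0.90 (SE 0.137, adjusted p = 0.000748) passed the limit on p but not that on the fold change. Its means differed 6.26-fold, and with a pseudocount of 0.1 in place of 1 the log2 fold change was 2.23. With all 16 samples and the pseudocount of 1 it was 0.88 (adjusted p = 0.000199). In the fit of 14 samples Ccr1 passed the filter through its 3 day 7 samples alone, so a difference between day 7 and any other group is partly fixed by the filter.

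Counted together, 1 of the 7 genes was called on day 7, and 4 of 7 (Ccl6, Ccl7, Ccl11 and Cx3cr1) rose at the looser cut-off against 3.93% of all genes. With all 16 samples these counts were 1 and 5. Every day 7 sample exceeded every sham sample for all 7 genes, which held for 23.8% of all genes tested. The median log2 fold change of the 7 genes was 1.43, and that of all genes was 0.04. The count and median include Ccl11 and Ccr1, which entered the test through their TCI samples.

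**Figure D2:**
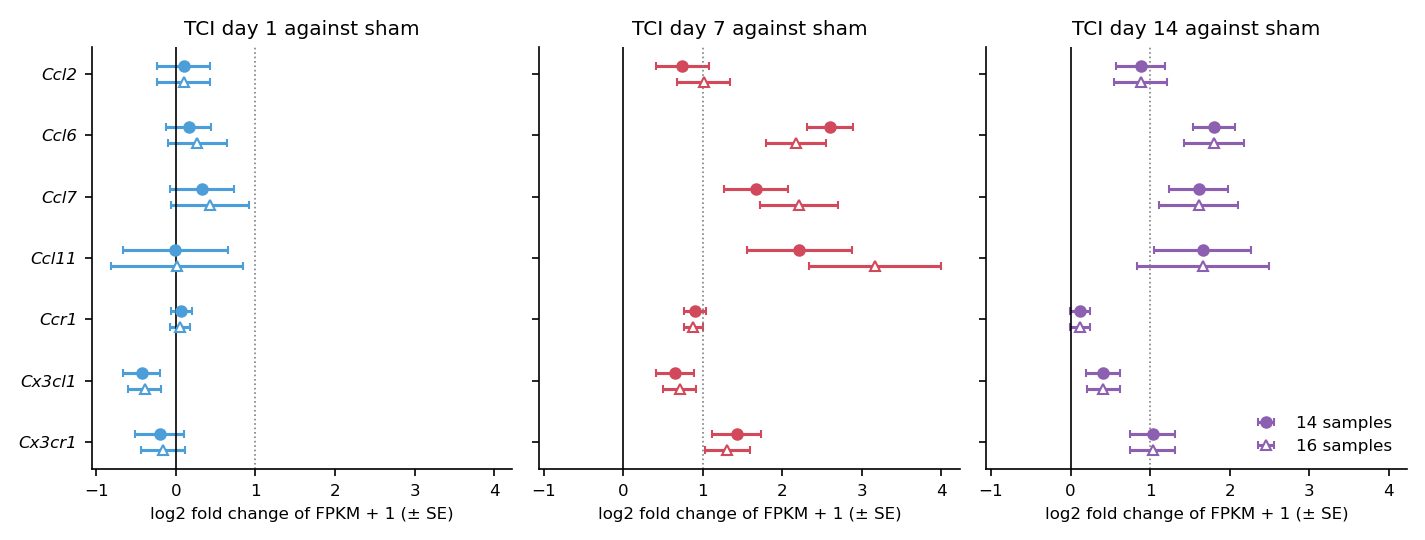
Log2 fold change of FPKM + 1 against sham (points, with SE bars) for each gene on days 1, 7 and 14, with 14 samples (filled circles) and all 16 samples (open triangles). The dotted line marks a log2 fold change of 1. On day 1 all values lie between -0.43 and 0.43, and on day 7 Ccl6 reaches 2.60 with 14 samples and Ccl11 3.16 with 16.

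On day 14 Ccl6, Ccl7 and Cx3cr1 were still above sham, while Ccr1 lay within the sham range in most samples. Ccl6 measured 21.10, 24.75, 9.94 and 19.81 FPKM, each above the sham samples, and rose by a log2 fold change of 1.80 (SE 0.265, adjusted p = 0.0011), which misses the strict limit on p. With all 16 samples the adjusted p of Ccl6 was 0.00739. Ccl7 measured 4.81, 17.33, 2.45 and 7.86 FPKM, and its lowest sample was close to the highest sham sample of 1.95 FPKM. The log2 fold change of Ccl7 was 1.61 (SE 0.372, adjusted p = 0.0122), and with all 16 samples the adjusted p was 0.0528, or 0.0538 with only the 2 groups in the fit. Cx3cr1 measured 3.17, 7.33, 1.51 and 3.87 FPKM, with 1 sample inside the sham range (log2 fold change 1.03, SE 0.285, adjusted p = 0.0284). This passed with all 16 samples (adjusted p = 0.0298) but not in 6 of 22 alternatives, including those without day 14 replicate 2 or replicate 4, with a highest adjusted p of 0.0741 and a lowest log2 fold change of 0.74.

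The other genes did not pass on day 14. Ccl2 measured 17.95, 64.93, 21.53 and 19.15 FPKM, so that replicate 2 stood far above the other samples of its group, and the log2 fold change of 0.88 (SE 0.307) had an adjusted p of 0.0711. Ccl11 measured 2.60, 0.76, 1.38 and 12.33 FPKM, all above sham (1.66, SE 0.611, adjusted p = 0.0873). Cx3cl1 measured 2.81, 7.45, 3.88 and 3.59 FPKM and overlapped sham (0.41, SE 0.217, adjusted p = 0.232). Ccr1 at 0.35, 0.16, 0.11 and 0.65 FPKM was within the sham range in all but replicate 4 (0.12, or -0.25 under quantile normalization, SE 0.127, adjusted p = 0.551). With all 16 samples the adjusted p was 0.12 for Ccl2, 0.25 for Ccl11, 0.267 for Cx3cl1 and 0.607 for Ccr1. None of the 7 genes was called by limma, against 0.642% of all genes, and 3 of 7 (Ccl6, Ccl7 and Cx3cr1) rose at the looser cut-off, against 2.58% of all genes, or 2 with all 16 samples. Every day 14 sample exceeded every sham sample for 4 of the 7 genes, the CC ligands, and for 13.8% of all genes tested. The median log2 fold change was 1.03 for the 7 genes and 0.025 for all genes. The count without overlap includes Ccl11, and the median includes Ccl11 and Ccr1, which entered the test through their TCI samples. Over all genes 4198 had an unadjusted p under 0.05 in this comparison.

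The days were also compared with each other, where the sham level does not enter but TCI samples are shared with the comparisons above. The days differ in the time since surgery, and sham was sampled on day 14 only. The effect of tumor cells and that of time cannot be told apart here either. From day 1 to day 7 Ccl6 was called (log2 fold change 2.45, adjusted p = 0.000455), and it was not called with all 16 samples (1.91, adjusted p = 0.00349). Cx3cl1 rose between these days (1.08, SE 0.251, adjusted p = 0.0152), as did Cx3cr1 (1.63, SE 0.329, adjusted p = 0.00689). The difference of Cx3cl1 no longer passed without day 1 replicate 4 or day 7 replicate 2 (0.91, adjusted p = 0.0741), and it fell short of the fold limit under quantile normalization (0.90) and with a replicate block (0.91). Ccr1 passed the limit on p alone (0.83, adjusted p = 0.00307). Ccl7 (1.34, adjusted p = 0.0666), Ccl11 (2.22, adjusted p = 0.0655) and Ccl2 (0.64, adjusted p = 0.315) did not pass. Thus 1 of 7 genes was called and 3 of 7 rose, against 0.884% and 3.44% of all genes, or 0 and 5 with all 16 samples. From day 1 to day 14 Ccl6 (1.65, adjusted p = 0.00613) and Cx3cr1 (1.23, adjusted p = 0.0319) rose, which made 2 of 7 genes against 2.18% of all genes, and limma called none, against 0.185% of all genes, while 3054 genes reached an unadjusted p below 0.05. Fitting all 16 samples again gave 2 members that rose and 0 called. Cx3cr1 missed the limit on p in 7 of 22 alternatives, among them those without any 1 of the day 1 samples or without day 14 replicate 4, with a highest adjusted p of 0.146 with only the 2 groups in the fit, and without day 14 replicate 2 its log2 fold change was 0.94. Cx3cl1 differed by 0.84 (adjusted p = 0.0494), and it passed the limit on p in only 5 of 22 alternatives.

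From day 7 to day 14 Ccr1 had the lowest adjusted p of the 7 genes but passed neither cut-off, and it had entered the test through its day 7 samples alone. All its day 14 samples, at most 0.65 FPKM, lay below all day 7 samples, at least 1.08 FPKM, and the log2 fold change was -0.78 (SE 0.137, adjusted p = 0.0709, or 0.0384 with all 16 samples). Ccl6 differed by -0.80 (SE 0.286, adjusted p = 0.36), and the other genes had adjusted p-values of 0.722 or more. No member was called or passed the looser cut-off, and only 0.0143% and 0.0499% of all genes were lower at the 2 cut-offs, although 1396 genes had an unadjusted p under 0.05.

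The makeup of the CC ligand pool shifted with the day. The summed level of Ccl2, Ccl6, Ccl7 and Ccl11 was 17.16 to 25.03 FPKM in sham and 21.14 to 23.66 FPKM on day 1. It was 59.72 to 85.35 FPKM on day 7 and 35.3 to 107.77 FPKM on day 14. Ccl2 supplied 63.2% to 72.5% of the sum in sham but 29% to 43.1% on day 7. Ccl6 supplied 16.8% to 29.1% in sham and 39.4% to 60.8% on day 7, so the shares of both ligands did not overlap between these groups in the samples kept. In the day 7 sample left out Ccl2 supplied 30.2%, within the day 7 range, but Ccl6 only 5.29%, below every sham sample. On day 14 the shares varied more between rats, with Ccl2 at 38.6%, 60.2%, 61% and 32.4% and Ccl6 at 45.4%, 23%, 28.2% and 33.5%. The order of the levels changed too. On day 7 Ccl6 (32.8 FPKM) and Ccl2 (24.1 FPKM) led, with overlapping ranges, above Ccl7 (6.98 FPKM), Ccl11 (6.86 FPKM), Cx3cr1 (5.22 FPKM) and Cx3cl1 (5.21 FPKM), which did not differ beyond their spread, and Ccr1 (1.24 FPKM) was last. On day 14 neighbours in the order Ccl2 (30.9 FPKM), Ccl6 (18.9), Ccl7 (8.11), Cx3cl1 (4.43), Ccl11 (4.27) and Cx3cr1 (3.97 FPKM) all overlapped, and only Ccr1 (0.318 FPKM) lay apart.

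**Figure D3:**
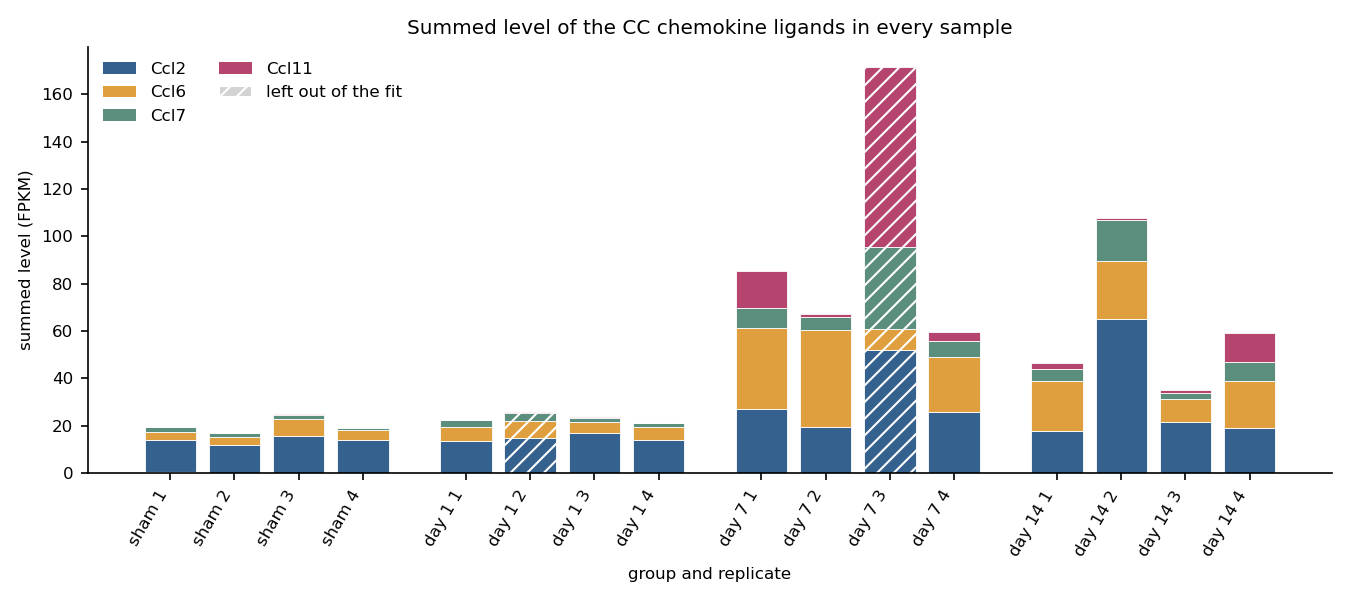
Summed level (FPKM) of Ccl2, Ccl6, Ccl7 and Ccl11 in every sample, by group and replicate, with hatched bars for the 2 samples left out of the fit. Sums stay at or below 25.66 FPKM in sham and day 1, and the highest bar, 171.37 FPKM in day 7 replicate 3, holds 44.2% Ccl11 and 5.29% Ccl6.

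The sample with the highest level was shared by some genes of a group and not by others, which is given as a description. Sham replicate 3 was the highest of its group for 5 of the 7 genes and day 7 replicate 2 for 4. In day 7 replicate 3 the sum of the 4 ligands was 171.37 FPKM, and Ccl2, Ccl7 and Ccl11 were at their highest of the day 7 group while Ccl6 and Cx3cr1 were at their lowest. In day 14 replicate 2 Ccl2, Ccl6, Ccl7, Cx3cl1 and Cx3cr1 were the highest of their group, and Ccl11, at 0.76 FPKM, was the lowest. Ccl11 was highest in day 14 replicate 4 (12.33 FPKM), where Ccl2 stood at 19.15 FPKM. For all 7 genes the highest sample exceeded the lowest by a larger factor on day 14 than in sham, from 1.35 in sham to 3.62 on day 14 for Ccl2, 1.82 to 7.07 for Ccl7, 6.8 to 16.2 for Ccl11, 3.89 to 5.91 for Ccr1, 1.53 to 4.85 for Cx3cr1, 1.87 to 2.65 for Cx3cl1 and 2.22 to 2.49 for Ccl6. The share of all genes with a larger factor on day 14 was not counted, so the wider spread is not read as particular to these genes. For Ccl11 and Ccr1 the sham factors rest on lowest values of 0.05 and 0.09 FPKM. Relative to its mean, Ccl6 varied no less in sham (39.3%) than on day 7 (26.5%) or day 14 (33.5%) in the samples kept. With all 16 samples the day 7 value was 51.5%, above that of sham. On log2(FPKM + 1) the SD of Ccl6 in the samples kept was 0.422 in sham, 0.391 on day 7 and 0.545 on day 14.

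Other genes of the pathway were read from lists by role. Of 16 other CC ligands 8 passed the filter, of which 1 was called and 3 rose on day 7 and again on day 14. Ccl5, a T cell and macrophage chemokine, went from 1.2 FPKM in sham to 68.6 FPKM on day 7 (log2 fold change 4.90, adjusted p = 3.9e-05), and Ccl4 rose with it (2.91, adjusted p = 0.00152). Ccl3, under 1 FPKM in every sham sample, was the remaining one on both days. Ccl21 (0.74, adjusted p = 0.0944) and the skin chemokine Ccl27 (0.02, adjusted p = 0.888) had the smallest values. Of 10 CXC and C ligands tested 6 rose on day 7 and 5 on day 14, with 1 called on each day. Cxcl11, counted as risen on both days, was under 1 FPKM in every sham sample and entered the test through TCI samples. The leading pair were the B cell chemokine Cxcl13 (3.64, adjusted p = 0.00501) and the interferon-induced Cxcl9 (3.44, adjusted p = 0.00119), and Cxcl17 (0.60, adjusted p = 0.226) and Cxcl6 (-0.04, adjusted p = 0.907) were the lowest.

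On the receptor side, values are given for single CC and atypical receptors, without a count over their list. The scavenger receptor Ackr3 differed by 0.85 (adjusted p = 0.0201), Ccr10 by 0.08 (adjusted p = 0.667) and Ackr1 by -0.17 (adjusted p = 0.175) on day 7. Ccr3, the receptor of Ccl11, was at most 0.38 FPKM in all 16 samples and at 0 in most, and it was not tested.

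The proteases that shed fractalkine moved unequally. Ctss (cathepsin S), which macrophages and microglia secrete, was called on day 7 (2.67, SE 0.306, adjusted p = 0.000148), with a mean of 58.6 FPKM against 8.7 FPKM in sham, and on day 14 (2.15, adjusted p = 0.000691). The membrane metalloproteases Adam10 (33.3 FPKM in both groups, adjusted p = 0.995) and Adam17 (12.2 against 12.1 FPKM, adjusted p = 0.99) did not pass the test on day 7. Of 19 genes of chemokine receptor signaling that were tested, 4 rose on day 7, 3 of them called, and 3 rose on day 14, 1 of them called. The leukocyte GTPase Rac2 (3.17, adjusted p = 0.000217) and the actin regulator Was (1.96, adjusted p = 0.00052) led, and Elmo1 (-0.13, adjusted p = 0.114) and Gnai1 (-0.14, adjusted p = 0.175) were the lowest. Was, Vav1 and Pik3r5, 3 of the 4 that rose on day 7, were under 1 FPKM in every sham sample, so they entered the test through TCI samples and their count is no support. The same background of 1.83% and 3.93% of genes on day 7 and of 0.642% and 2.58% on day 14 applies to these counts.

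**Figure D4:**
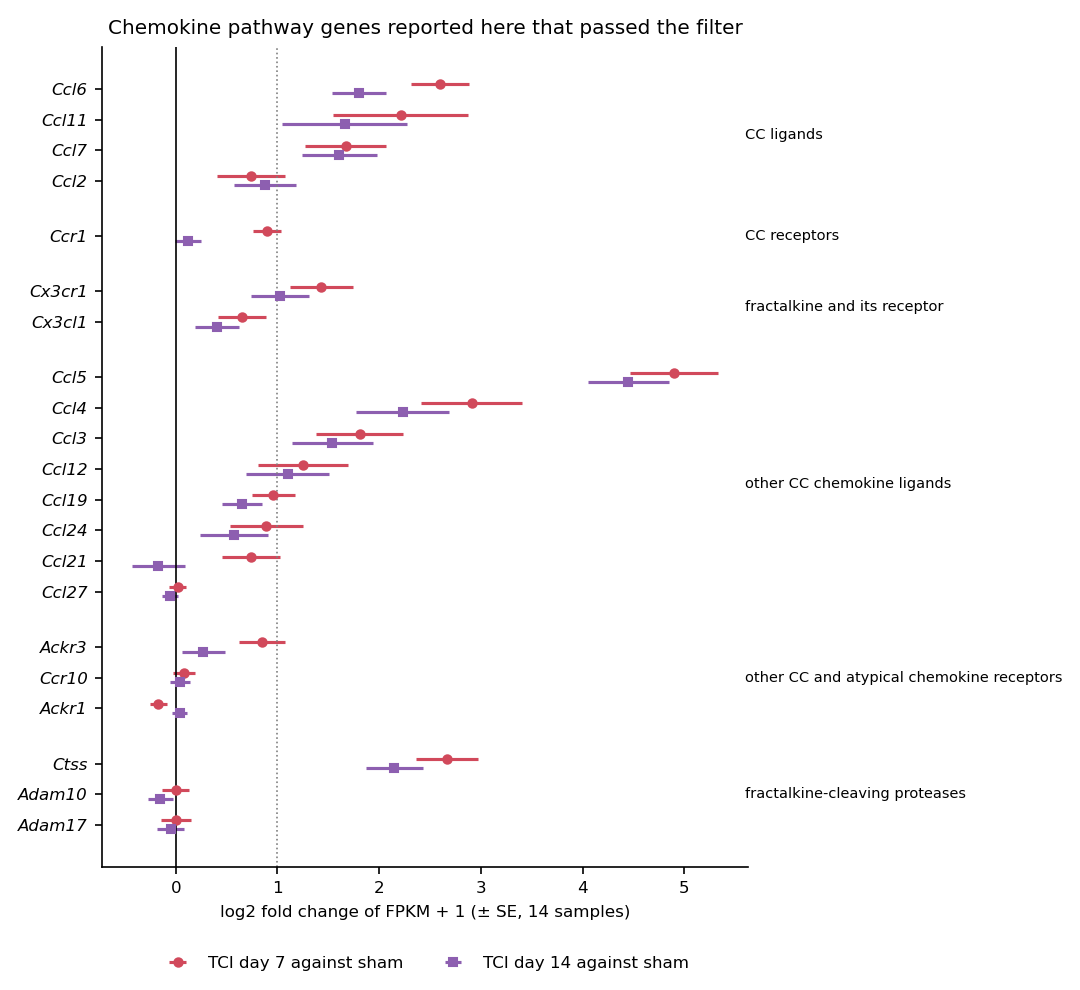
Log2 fold change of FPKM + 1 against sham (with SE, 14 samples) on day 7 (circles) and day 14 (squares) for chemokine pathway genes that passed the filter, grouped by role. The CXC and C ligands and the genes of chemokine receptor signaling are not drawn. The dotted line marks a log2 fold change of 1. Ccl5 at 4.90 lies furthest to the right on day 7, and Adam10, Adam17 and Ccl27 lie at about 0.

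Most macrophage and monocyte markers also rose on days 7 and 14. All 16 markers of the list rose on day 7 and 13 were called, against 3.93% and 1.83% of all genes. On day 14, 14 rose and 8 were called, against 2.58% and 0.642%. Itgam and Ptprc, which rose on both days, were under 1 FPKM in every sham sample and entered the test through TCI samples. The summed level of the 16 markers was 80.2 to 146 FPKM in sham and 105 to 124 FPKM on day 1. It was 1031 to 1380 FPKM on day 7, 584 to 1997 FPKM on day 14 and 922 FPKM in the left-out day 7 sample. T cell markers rose too, 9 of 10 on day 7 and 8 of 10 on day 14, but 8 and 7 of these were under 1 FPKM in every sham sample and entered the test through TCI samples. None of 10 neuron, 8 satellite glia, 8 Schwann cell or 8 endothelium markers passed both limits on either day. On the limit on p alone 5 neuron markers were lower on day 7 (Nefl, Nefm, Nefh, Rbfox3 and Snap25, log2 fold changes of -0.30 to -0.24) and 4 on day 14. Among satellite glia markers Kcnj10 was lower by that limit on both days (-0.75 and -0.97), with Cdh19 and Hmgcs1 on day 14, and Glul was higher on day 7. The endothelial markers Cdh5 (0.83, adjusted p = 0.0101) and Vwf (0.59, adjusted p = 0.0223) were higher on day 7 by that limit, and no Schwann cell marker passed it. Of 6 fibroblast markers 2 rose on day 7 and 0 on day 14. Of 2 neutrophil markers tested 1 (S100a9) rose on day 7. Both were under 1 FPKM in every sham sample and entered the test through TCI samples. Of 3 erythroid markers 1 fell on day 7, and neither of the 2 eosinophil markers tested passed both limits. On the limit on p alone Pdgfra (fibroblasts), Csf3r (neutrophils) and Siglec5 (eosinophils) were also higher on day 7, and Dcn (fibroblasts) on day 14. Siglec5 too was under 1 FPKM in every sham sample. The 5 B cell markers did not pass the filter. The part of the marker changes in the chemokine results was not tested.

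The 7 genes were also set against the macrophage markers of the same sample. The mean log2(FPKM + 1) of the 16 markers was subtracted from that of each gene, as a description without a test. For Ccl6 this difference was 0.22 ± 0.30 in sham, 0.33 ± 0.22 on day 7 and 0.09 ± 0.40 on day 14 (SD), and -1.34 in the day 7 sample left out. Ccl2 went from 1.68 ± 0.23 in sham to -0.08 ± 0.46 on day 7, Cx3cl1 from -0.25 ± 0.32 to -2.10 ± 0.07, and Cx3cr1 from -1.06 ± 0.14 to -2.13 ± 0.26. Ccr1 went from -1.96 ± 0.17 to -3.56 ± 0.11, and Ccl7 from -0.91 ± 0.42 to -1.73 ± 0.43. In the day 7 sample left out the difference was 1.05 for Ccl2, between the other day 7 samples and sham, and 0.49 for Ccl7, above every sham sample. Ccl11 varied widely, at -1.96 ± 0.30 in sham and -2.25 ± 1.66 on day 7. These differences depend on the 1 FPKM added to each value, which compresses the change of genes near 0 such as Ccr1 and Ccl11. The 3 genes whose change from sham was most like that of Ccl6 over the 10 TCI samples kept were Cd37, Hcst and the macrophage growth factor receptor Csf1r, with mean absolute log2 differences of 0.227, 0.26 and 0.27. Csf1r is also 1 of the 16 markers.

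**Figure D5:**
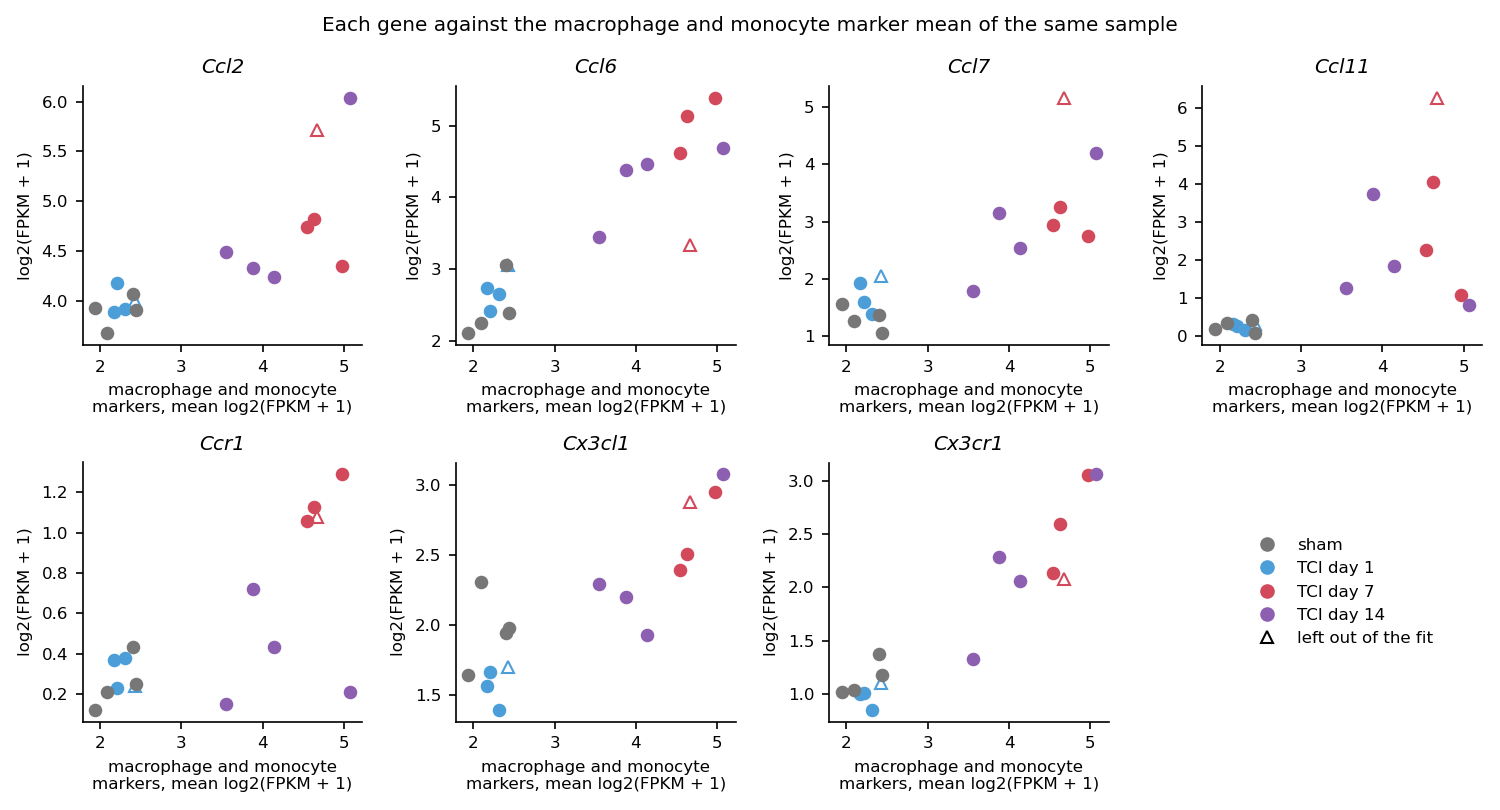
Log2(FPKM + 1) of each gene against the mean log2(FPKM + 1) of 16 macrophage and monocyte markers in the same sample, colored by group, with open triangles for the samples left out. Sham and day 1 samples share the left end (marker means of 1.94 to 2.44), and Ccl11 is the lowest of its group in day 14 replicate 2 although the marker mean there is the highest, at 5.07.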

How the data were processed

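Bulk RNA-seq of 16 DRG samples was used. According to the study's methods the authors filtered reads, aligned them with HISAT and Bowtie2 and estimated expression with RSEM, and the deposited values are FPKM, 1 table of 21021 genes per sample. The submitters' processing notes name CASAVA 1.4. The sequencer is BGISEQ in the methods and Illumina in the labels, and the genome build and annotation were not given in the sources used here. FPKM hold no counts, so the study's count test and any counting interval could not be used. Samples are separate rats, grouped by their labels, and no pair shared more than 2.59% identical values.

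Tables were joined by gene identifier. The test took in genes that reached 1 FPKM in 3 or more samples (14023 with 14 samples, 14087 with 16). limma 3.58.1 in R 4.3.3 was fitted to log2(FPKM + 1) with all 4 groups in 1 model (eBayes with trend, Benjamini-Hochberg adjustment) and was tested on simulated data. Sample records were read with jsonlite 2.0.0. Promoters were read with Python 3.11.15 and pandas 2.3.3, and figures drawn with matplotlib 3.10.9. Alternatives changed the samples, scaling, filter, pseudocount, trend, threshold or added the replicate number as a block. The genes and lists were chosen with earlier results of these data known. All 8 genes are named, and of each other list the 2 largest and 2 smallest day 7 fold changes among genes tested, plus Adam10, Adam17, Ctss and Ccr3. Vav1, Pik3r5, Cxcl11, Itgam, Ptprc and the single neuron, glia, endothelium, fibroblast, neutrophil and eosinophil markers are named after their values were seen. 1 receptor of these lists is not reported here. Ccl3, Ccl9, Ccl12 and other neighbours are named for their position. For a called gene the 3 most alike by mean absolute difference of change are named.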

Additional observations from a re-analysis of the deposited data

Results flagged for a closer look

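Among 28 combinations of gene and group, 1 held a sample far from the others, Ccl2 in TCI day 14 replicate 2 at 64.93 FPKM, where chance flags about 1 in 20 groups, or 1.4 of 28. The effects against sham differed between days where the days themselves differed with an adjusted p no higher than 0.05. From day 1 to day 7 the log2 difference was 2.45 for Ccl6, 0.83 for Ccr1, 1.08 for Cx3cl1 and 1.63 for Cx3cr1, with Ccr1 in the test through its day 7 samples alone. From day 1 to day 14 it was 1.65 for Ccl6, 0.84 for Cx3cl1 and 1.23 for Cx3cr1.

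The 2 samples left out of the fit also held values above every sham sample. In TCI day 1 replicate 2 this was Ccl7 at 3.16 FPKM. In TCI day 7 replicate 3 it was every measured member, with Ccl2 at 51.83, Ccl6 at 9.07, Ccl7 at 34.81, Ccl11 at 75.66, Ccr1 at 1.11, Cx3cl1 at 6.36 and Cx3cr1 at 3.24 FPKM. The share of all genes above every sham sample in these 2 samples was not counted, so this is not read as particular to the members. Ccl11 and Ccr1 also entered the test through TCI samples.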

How the results depend on the processing

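Of the 7 measured genes 1 was called on day 7 against sham. With a replicate block 0 were called, with only the 2 groups compared 2 (Ccl6 and Ccl7), at an adjusted p of at most 0.05 4, with no limit on the fold change 5, and leaving out 1 sample at a time 0 to 3 (0 without TCI day 7 replicate 1, 3 without TCI day 14 replicate 2). On day 14 against sham 0 were called, 1 (Ccl6) with a mean of at least 5 FPKM and with a pseudocount of 0.1, 0 to 1 leaving out 1 sample (1 without TCI day 14 replicate 3), and 3 and 3 at 0.05 with and without the fold limit. From day 1 to day 7 1 was called, 0 with all 16 samples, no filter or a replicate block, 0 to 2 leaving out 1 sample (0 without any 1 of the day 1 samples or day 7 replicates 1 or 2), and 3 and 4 at 0.05. From day 1 to day 14 0 were called, 0 to 1 leaving out 1 sample (1 without TCI day 14 replicate 3), and 2 and 3 at 0.05. No alternative called a member on day 1 or between days 7 and 14. Signs turned for small values. Ccl11 on day 1 (-0.01) was 0.01 with all 16 samples, 0.03 with a pseudocount of 0.1 and -0.07 to 0.05 leaving out 1 sample. Quantile normalization gave Ccr1 on day 14 (0.12) as -0.25 and from day 1 to day 14 (0.06) as -0.30, the latter -0.06 to 0.13 leaving out 1 sample. From day 7 to day 14 Ccl2 (0.14) was -0.13 with all 16 samples and -0.28 to 0.32 leaving out 1, Ccl7 (-0.06) was 0.00 under quantile normalization, 0.07 with a replicate block and -0.49 to 0.31 leaving out 1, and Ccl11 (-0.55) was -1.24 to 0.25 leaving out 1. The cause of these changes was not tested.

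Over all genes, 257 were called higher on day 7 against sham, with 164 under no filter, 123 with a mean of at least 5 FPKM, 112 with the replicate block and 413 with only the 2 groups. Leaving out 1 sample gave 49 to 471. On day 14, 90 were called, with 54 without the trend, 31 under no filter, 180 with a pseudocount of 0.1, 19 with the block, 4 with only the 2 groups and 15 to 173 leaving out 1. Same-numbered samples came from different rats. Their deviations from the group means had r of -0.0952 to 0.269 over 18 pairs, 4 over 0.1. Differently numbered samples had r of -0.326 to 0.41 over 55 pairs, 8 over 0.1. The main fit did not pair samples by number, and whether the numbers mark a batch was not tested. The planned comparison of Ccr2 with Cx3cr1 was not run, since Ccr2 was not analysed here, and Ccl11, Ccr1, Ccl7 and both fractalkine genes gave no value where the mean had to reach 5 FPKM, nor did Ccr1 without a day 7 sample. Without read counts the precision of values under 1 FPKM, as for Ccr1 and Ccl11 in sham, is unknown. The counts at the looser cut-off under each alternative were added after seeing the data.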

Other observations

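In TCI day 7 replicate 3 some other chemokine genes were high like Ccl2, Ccl7 and Ccl11 and others were not, as values chosen after they were seen. Ccl12, the next gene after Ccl11 on chromosome 10, measured 12.64 FPKM there against 2.90, 1.31 and 3.36 FPKM in the other day 7 samples, the eosinophil chemokine Ccl24 19.03 against 5.06, 2.09 and 3.34 FPKM, and Ccl17, the neighbour of Cx3cl1, 5.98 against 0.54, 0.00 and 1.51 FPKM. Of the group that holds Ccl6, Ccl5 was lower in that sample, at 18.78 against 63.40, 106.71 and 35.77 FPKM. Ccl3 was lower too, at 1.55 against 2.71, 4.63 and 2.47 FPKM. Ccl4 (6.06 against 10.83, 14.66 and 5.61 FPKM) and Ccl9 (0.57 against 0.44, 0.57 and 0.25 FPKM) were not the lowest there. The muscle genes Acta1 (6693.26 FPKM) and Ckm (3628.34 FPKM) stood far above the other day 7 samples, which held at most 6.95 and 2.34 FPKM. The part of muscle tissue in these chemokine values was not tested. Ccl24 and Ccl17 shared with Ccl11 a second high sample, day 14 replicate 4, at 7.10 and 2.31 FPKM against at most 2.09 and 0.49 FPKM in the other day 14 samples.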
